A study of Homo sapiens with 6 samples.

Results

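Voltage-gated and potassium ion channel genes were followed in human induced pluripotent stem cells (hiPSCs). They were taken from the count files by symbol alone: every gene whose GENCODE 44 symbol begins with KCN (potassium channels and their auxiliary subunits), with SCN followed by a number and A or B (voltage-gated sodium channel alpha and beta subunits), or with CACN followed by A, B or G (voltage-gated calcium channel alpha1, alpha2delta, beta and gamma subunits). Of the 19977 genes listed, 136 were members, 96 of them potassium, 14 sodium and 26 calcium channel genes, and all 136 are protein coding. Only genes whose counts over the 6 libraries added up to 10 or more were tested, which kept 16505 genes in all and 120 of the 136 channel genes. Of the 16 that were not tested, 5 had no count in any library (KCNA10, KCNJ18, KCNK18, KCNU1 and CACNG1). KCNA4, with a total of 10 counts, was the lowest member kept, and KCNC2, KCNJ5 and CACNG2, with 8 counts each, were the highest members left out.

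The cells were NCRM-1, a wild-type hiPSC line reprogrammed with episomal vectors from CD34+ cells of cord blood, expanded on vitronectin in E8, seeded as single cells and grown as aggregates in vertical wheel bioreactors for 4 days, with 50% of the medium replaced on day 2. The study asked what polymer additives do to hiPSCs in suspension, and bulk polyadenylated RNA was sequenced for 2 groups of 3 samples: E8 to which polyethylene glycol (10 mg/ml) and heparin (0.1 µg/ml) had been added, called PEG and HS, and plain E8, called Control. The titles name a single bioreactor for each medium, so medium and vessel cannot be told apart, libraries of the same medium may stem from a shared culture, and p-values measure only the spread between these libraries. The treatment text of the labels describes PEG with heparin for all 6 libraries, while the treatment field and the growth text set the groups used here. All the cells come from 1 line, and no differentiation was induced.

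The libraries held 26991279 to 36185138 counts, and their log CPM correlated at 0.998 within a medium and at 0.993 to 0.994 between media. The pluripotency marker POU5F1 was at 1905, 1906 and 1954 CPM in PEG and HS, against 1611, 1665 and 1629 CPM in Control, and NANOG, the lowest of the 8 pluripotency markers, was at 126 to 187 CPM. CPM, the unit of level used throughout, scales the counts of a gene to a fixed library size, here corrected by TMM factors of 0.994 to 1.006. In bulk RNA, fewer cells of a type and less RNA per cell cannot be told apart.

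Ion channels are membrane pores made of a pore-forming alpha subunit and auxiliary subunits that set how the pore opens and how much of it reaches the surface. Voltage-gated sodium and calcium channels open on depolarization and carry inward current, whereas potassium channels carry outward current and hold the resting potential, which in cells that do not fire also bears on volume, calcium entry and progress through the cell cycle. Pluripotent stem cells are not excitable, yet they transcribe many channel genes that are best known from neurons and heart.

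Upstream sequences were read for 6 members that the results turn on, 4 that were lower in PEG and HS and 2 that were higher. Each is the stretch before the RefSeq start nearest to the canonical start, on GRCh38.p14, up to 250 bases long, cut where an annotated exon begins and written on the gene's strand. Capitals mark the GC box GGGCGG on either strand. The silent subunits KCNG3 and KCNS3 are shown since they moved in opposite directions, and KCNJ6 and KCNJ2 since they are the 2 inward rectifier genes that passed the test, also in opposite directions. KCNA5 had the largest fall among the members with at least 0.5 CPM in 1 medium, and CACNA2D2 had the lowest adjusted p of all members. The stretches lie at chr12:5043629-5043878 (plus strand) for KCNA5, chr21:37916458-37916707 (minus strand) for KCNJ6, chr3:50503635-50503884 (minus strand) for CACNA2D2, chr2:42493983-42494232 (minus strand) for KCNG3, chr17:70169405-70169531 (plus strand) for KCNJ2 and chr2:17878417-17878666 (plus strand) for KCNS3.
KCNA5: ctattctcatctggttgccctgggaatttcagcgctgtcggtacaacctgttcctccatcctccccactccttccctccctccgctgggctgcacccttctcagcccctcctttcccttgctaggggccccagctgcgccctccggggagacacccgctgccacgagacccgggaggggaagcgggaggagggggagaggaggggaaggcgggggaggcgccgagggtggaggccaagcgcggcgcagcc
KCNJ6: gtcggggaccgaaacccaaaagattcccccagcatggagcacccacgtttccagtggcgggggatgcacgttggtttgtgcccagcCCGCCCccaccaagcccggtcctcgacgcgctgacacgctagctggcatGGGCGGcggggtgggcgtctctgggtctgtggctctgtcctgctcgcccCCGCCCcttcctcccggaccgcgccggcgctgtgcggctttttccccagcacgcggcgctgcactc
CACNA2D2: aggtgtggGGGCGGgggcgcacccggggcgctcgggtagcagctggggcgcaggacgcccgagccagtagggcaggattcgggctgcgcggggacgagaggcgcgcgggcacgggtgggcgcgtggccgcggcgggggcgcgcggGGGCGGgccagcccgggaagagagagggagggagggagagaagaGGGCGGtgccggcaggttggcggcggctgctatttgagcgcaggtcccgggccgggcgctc
KCNG3: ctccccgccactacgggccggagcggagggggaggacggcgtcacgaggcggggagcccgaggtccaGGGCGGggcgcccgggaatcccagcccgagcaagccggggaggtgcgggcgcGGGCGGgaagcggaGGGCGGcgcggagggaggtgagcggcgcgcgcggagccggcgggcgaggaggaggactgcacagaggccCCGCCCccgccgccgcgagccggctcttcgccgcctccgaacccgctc
KCNJ2: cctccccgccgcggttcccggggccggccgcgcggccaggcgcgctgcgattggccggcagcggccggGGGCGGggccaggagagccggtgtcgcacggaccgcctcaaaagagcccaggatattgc
KCNS3: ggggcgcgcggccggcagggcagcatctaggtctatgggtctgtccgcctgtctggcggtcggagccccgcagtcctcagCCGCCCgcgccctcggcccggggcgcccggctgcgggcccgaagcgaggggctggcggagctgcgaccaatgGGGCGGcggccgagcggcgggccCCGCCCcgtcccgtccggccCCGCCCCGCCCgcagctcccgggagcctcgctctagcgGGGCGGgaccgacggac

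The KCNA5 stretch holds no GC box and 15 CpG dinucleotides, and its share of G and C is 68.8%. The KCNS3 stretch holds 6 GC boxes and 38 CpG dinucleotides, and the KCNG3 stretch 4 and 40, at 81.2% and 80.8% G and C. KCNJ6 and CACNA2D2 have 3 GC boxes each, with 25 and 34 CpG dinucleotides. The KCNJ2 stretch is 127 bases long and has 1 GC box. Both directions of change thus occur beside GC-rich and CpG-rich upstream sequence.

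RefSeq promoter windows (250 bases before to 50 after a start) were available for 86 of the 120 tested members, with 134 windows among them. The GC box was present on either strand in 54.5% of these windows and in 45% of all 35116 windows. It was present in 18 of the 35 windows of the members called lower and in 9 of the 14 windows of those called higher. TATAAA on either strand was present in 5.97% of the channel gene windows against 11.5% of all windows. The median share of G and C was 65.3% for channel gene windows and 58.7% for all windows. Windows of 1 gene can overlap.

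Channel gene transcripts were, taken as a group, more often lower than higher in PEG and HS. In edgeR's quasi-likelihood fit, with p-values adjusted by Benjamini-Hochberg over all genes tested, 34 of the 120 members were called at an adjusted p under 0.05, a share of 28.3% against a background of 25.3% of all genes tested. Of these, 23 were lower in PEG and HS (19.2% of the members against 13.1% of all genes) and 11 were higher (9.17% against 12.2%), and 86 did not pass. The share called over all levels is thus near the background, and more of the calls were lower. The levels are unlike, with 28 of the 120 members at a mean of at least 10 CPM, against 10069 of 16505 genes. Within each range of level above 0.1 CPM, given below, members were called more often than all genes. The list as a whole was given no test. The median log2 fold change of PEG and HS over Control was -0.10 over the 120 members and 0.0031 over all genes. Part of this gap goes with level, since the all-gene median was itself lower at low levels. It was -0.12 between 0.1 and 1 CPM, -0.026 between 1 and 10 CPM and 0.014 from 10 CPM up. The medians of the members in these ranges were -0.21, -0.077 and -0.055. Of the 120 fitted changes, 69 were negative, against 8098 of 16505. The 3 libraries of one medium lay entirely above or below those of the other for 48 of the 120 members, against a background of 39.3% of all genes. These included all 34 called members, so a lack of overlap, where given below, adds nothing to a call.

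Most changes were small. Of the 34 calls, 21 were under 1.5-fold, and 5 reached 2-fold, all of them lower in PEG and HS (KCNA5, KCNE4, KCNJ6, CACNB3 and CACNA1E). A called change of at least 2-fold was seen in 2.02% of all genes. The median size of the change among called members was 0.46 on the log2 scale, against 0.25 among all called genes. Of the 34 calls, 22 held under DESeq2, limma-voom, the other normalizations and low-count filters, the replicate block and with each library left out, and 12 were lost in at least 1 of these. The higher calls that held there were KCNS3, KCNT2, CACNB4 and KCNMB4. When the test also asked for a change beyond 1.2-fold (glmTreat), 11 members passed, all lower, and no higher call did. Summed over the 136 members, the level was 959 to 982 CPM in the PEG and HS libraries and 1043 to 1056 CPM in the Control libraries.

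How often a member was called went with how well it was counted. Of 28 members with a mean of at least 10 CPM, 16 were called (6 higher, 10 lower), where 32.4% of all genes at this level were called. Between 1 and 10 CPM, 13 of 45 members were called (4 higher, 9 lower), against 21.6% of all genes. Between 0.1 and 1 CPM, 5 of 44 members were called (1 higher, 4 lower), against 5.85% of all genes. No member was called among the 3 with a mean under 0.1 CPM. For the members with few counts, a difference was not detectable at this depth unless it was large. The class shares given below are set beside all genes of any level, so they are not matched for level.

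**Figure D1:**
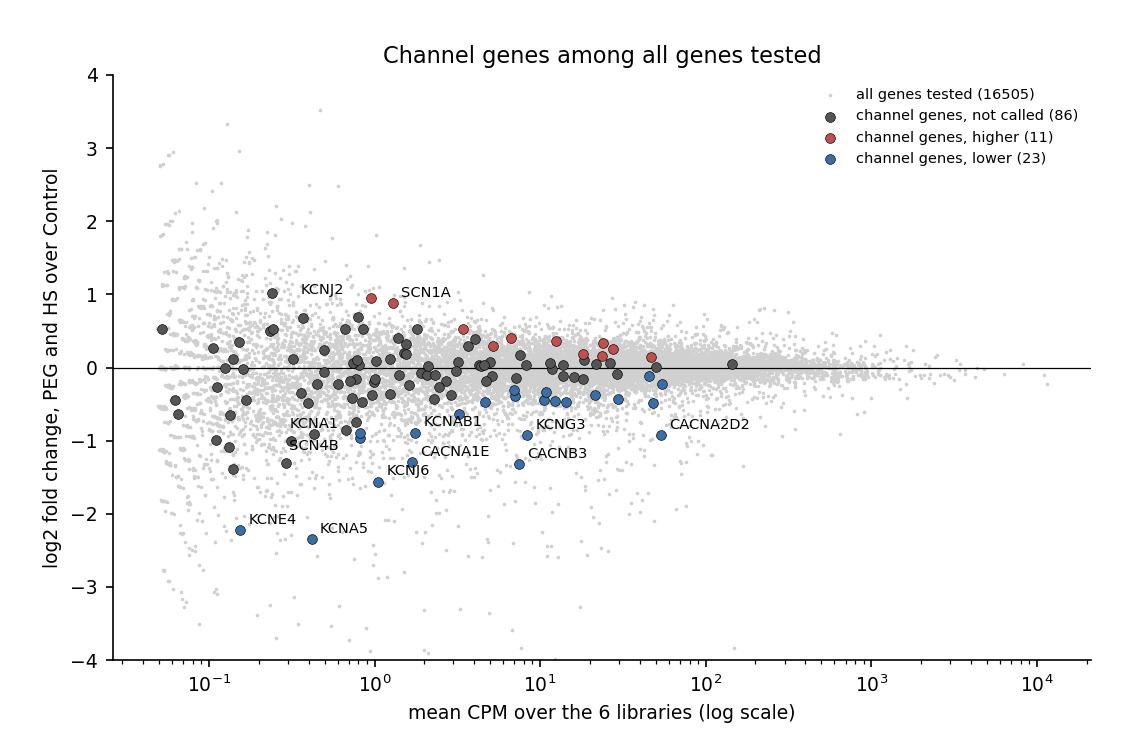
Each point is a gene, with its mean CPM over the 6 libraries on a log scale against its log2 fold change of PEG and HS over Control; grey points are all 16505 genes tested and the larger points the 120 channel genes, coloured by call. The 23 lower calls reach -2.35 (KCNA5) and the 11 higher calls reach 0.95 (KCNJ2); 49 genes outside the vertical axis are not drawn, none of them a channel gene.

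The alpha2delta subunits of calcium channels had the lowest class median, -0.70 on the log2 scale. Of the 4, 2 were called, both lower (50%, against 13.1% of all genes called lower). These subunits sit on the outer face of the membrane and raise the number of high-voltage-activated calcium channels at the surface. CACNA2D2 (ENSG00000007402, GRCh38 chromosome 3, 50362613 to 50504244, minus strand) stood at 36.3, 38.9 and 36 CPM in PEG and HS, against 67.6, 71.7 and 70.6 CPM in Control. It was lower in every PEG and HS library, by -0.92 ± 0.041 on the log2 scale (SE, edgeR adjusted p = 2.07e-10), with means of 37.1 ± 1.56 and 70.0 ± 2.11 CPM (SD, n = 3 each). CACNA2D1 (ENSG00000153956, chromosome 7, 81946444 to 82443956, minus strand) stood at 41.5, 39.4 and 39.2 CPM against 56.6, 55.0 and 55.7 CPM. Its libraries did not overlap between media either, and its log2 fold change was -0.48 ± 0.039 (SE, edgeR adjusted p = 2.31e-07). The other two members, CACNA2D3 at 0.30 (edgeR adjusted p = 0.133) and CACNA2D4 at -1.01 with 61 counts in total (edgeR adjusted p = 0.108), did not pass. The 4 genes summed to 78.8 to 83.0 CPM in PEG and HS, against 128 to 131 CPM in Control. A lncRNA gene on the opposite strand covers 9.31% of the annotated exon bases of CACNA2D2, the libraries were stranded, and the strand setting of the counting is not given in the sources used here.

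Calcium channel beta subunits moved both ways. They are cytoplasmic proteins that bind the alpha1 subunit and help it to the membrane. CACNB3 (ENSG00000167535, chromosome 12, 48813794 to 48828941, plus strand) was at 4.27, 4.18 and 4.26 CPM in PEG and HS against 10.8, 11 and 10.0 CPM in Control. This was a 2.5-fold higher level in Control with no overlap of the libraries (log2 fold change -1.32 ± 0.083, SE, edgeR adjusted p = 1.11e-08). CACNB4 was at 8.01, 7.36 and 7.30 CPM against 6.12, 5.36 and 5.65 CPM. It was higher in each PEG and HS library than in any Control library (0.41 ± 0.089, SE, edgeR adjusted p = 0.00307). CACNB1, the beta subunit with the highest level per kilobase, was at 12.4, 11.9 and 10.9 CPM against 11.8, 11.6 and 12.2 CPM. The CACNB1 libraries overlapped (-0.015, edgeR adjusted p = 0.905), and CACNB2 at 0.072 (edgeR adjusted p = 0.684) did not pass either.

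Of the 10 alpha1 subunits, the pores of the calcium channels, 1 was called lower and 1 higher. That is a share of 20%, against 25.3% of all genes. CACNA1E, which encodes the R-type pore (ENSG00000198216, chromosome 1, 181317690 to 181813262, plus strand), was at 1.25, 0.849 and 0.798 CPM in PEG and HS, against 2.97, 2.43 and 1.80 CPM in Control. The lowest Control library lay above the highest PEG and HS library, although the Control libraries were spread widely (log2 fold change -1.29 ± 0.24, SE, edgeR adjusted p = 0.000912). CACNA1B, the N-type pore of nerve terminals, was at 18.9, 20.9 and 18.4 CPM against 17.1, 16.3 and 17.4 CPM. That rise was small (0.19 ± 0.062, SE, edgeR adjusted p = 0.0321), and it did not pass with DESeq2 (0.079) or without the first or second library of either medium (0.059 to 0.135). CACNA1H, a T-type pore that opens at low voltage, was by far the most counted channel gene, at 142, 149 and 147 CPM in PEG and HS, against 145, 137 and 141 CPM in Control. Its libraries overlapped and it did not pass (0.054 ± 0.031, SE, edgeR adjusted p = 0.238). The other 7 ranged from CACNA1S at -0.99 with 21 counts in total to CACNA1A at 0.068, and none of them passed.

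The gamma genes include the transmembrane AMPA receptor regulatory proteins, which are known mainly as partners of glutamate receptors. CACNG7 was at 48.1, 51.5 and 52.1 CPM in PEG and HS, against 56.5, 62.6 and 58.4 CPM in Control. It fell slightly, with no overlap (-0.23 ± 0.045, SE, edgeR adjusted p = 0.00138). CACNG4 stood at 5.78, 6.79 and 5.88 CPM against 7.52, 7.88 and 8.56 CPM, and was called lower (-0.39 ± 0.091, SE, edgeR adjusted p = 0.00577). CACNG5, its neighbour on chromosome 17, was at 5.99, 5.91 and 5.26 CPM against 4.6, 4.49 and 4.88 CPM. CACNG5 was called higher by a narrow margin, and that call was lost in 9 of the alternative settings (0.29 ± 0.10, SE, edgeR adjusted p = 0.0438, and 0.0517 to 0.153 there), which included DESeq2, limma-voom, the replicate block and each left-out library except the third PEG and HS library. CACNG8 was at 29.4, 29.0 and 26.0 CPM against 31.2, 27.9 and 30.9 CPM. These libraries overlapped (-0.094, edgeR adjusted p = 0.282), and CACNG6 at 0.028 did not pass.

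**Figure D2:**
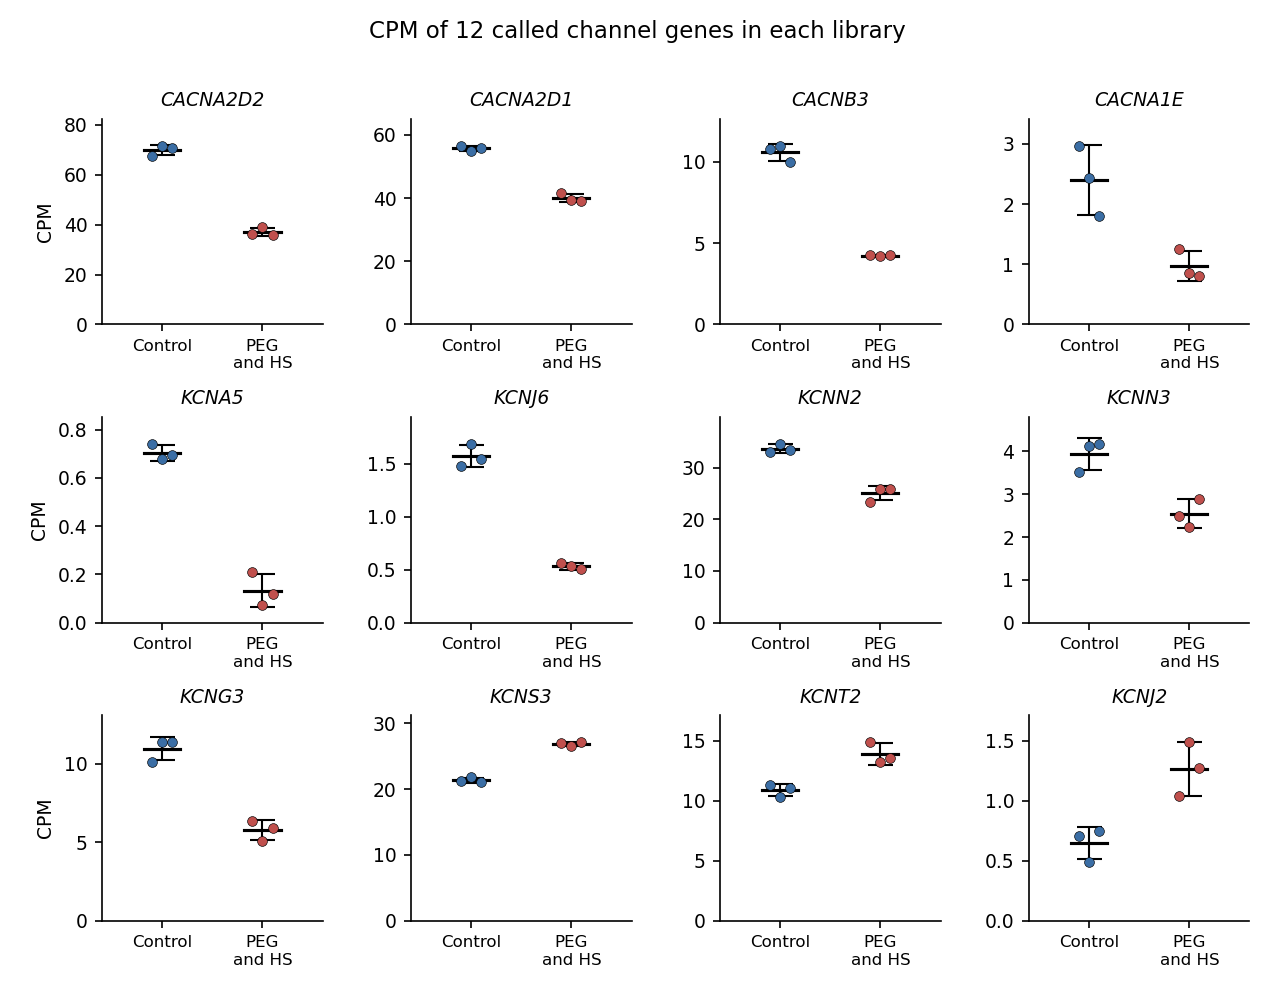
CPM of 12 called channel genes in each of the 3 Control (blue) and 3 PEG and HS (red) libraries, on linear axes from 0; the horizontal bar is the mean and the error bar the SD (n = 3). In every panel, as for all 34 called members, the 3 libraries of one medium lie apart from those of the other. The panels range from KCNS3 with 21.1 to 21.8 against 26.6 to 27.2 CPM to KCNA5 with 0.677 to 0.741 against 0.0708 to 0.208 CPM.

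Of the potassium channels opened by calcium, 4 of 5 were lower, and a sodium-activated relative was higher. The SK genes KCNN1, KCNN2 and KCNN3 encode small-conductance channels that respond to calcium through bound calmodulin. KCNN2 (ENSG00000080709, chromosome 5, 114055926 to 114496500, plus strand) was at 23.4, 25.9 and 25.9 CPM in PEG and HS, against 33.1, 34.6 and 33.3 CPM in Control. KCNN2 did not overlap between media, and fell by 0.43 on the log2 scale (SE 0.051, edgeR adjusted p = 1.47e-05). KCNN3 was at 2.49, 2.23 and 2.90 CPM against 3.52, 4.12 and 4.18 CPM (-0.63 ± 0.14, SE, edgeR adjusted p = 0.00351). KCNN1 was at 7.95, 9.31 and 9.75 CPM against 11.8, 12.3 and 12.6 CPM (-0.44 ± 0.080, SE, edgeR adjusted p = 0.000766). All 3 SK genes were thus called lower, while KCNN4, the intermediate-conductance relative, stood at 0.708 to 0.741 CPM against 0.741 to 0.893 CPM and did not pass (-0.16, edgeR adjusted p = 0.725). KCNMA1, the large-conductance BK pore, was at 3.86, 3.75 and 4.02 CPM against 6.30, 4.77 and 5.13 CPM and was called lower (-0.47 ± 0.12, SE, edgeR adjusted p = 0.00976).

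The BK accessory subunit KCNMB4 went the other way from its pore. It stood at 29.1, 29.6 and 31.9 CPM in PEG and HS, against 24.6, 26.1 and 25.2 CPM in Control, so each PEG and HS library was higher (0.25 ± 0.051, SE, edgeR adjusted p = 0.00168). KCNT2, a sodium-activated potassium pore (ENSG00000162687, chromosome 1, 196225779 to 196609225, minus strand), was at 14.9, 13.2 and 13.6 CPM against 11.3, 10.3 and 11.1 CPM. That was a rise without overlap (0.36 ± 0.070, SE, edgeR adjusted p = 0.00142). KCNT1, its closest relative, stood at 0.637 to 0.857 CPM against 0.630 to 0.831 CPM (0.055, edgeR adjusted p = 0.917). In all, 5 of the 7 tested genes of this class were called (71.4%, against 25.3% of all genes), 4 lower and 1 higher. The class summed to 54.1 to 57.7 CPM in PEG and HS, against 67.4 to 67.8 CPM in Control.

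Of 36 tested voltage-gated potassium alpha subunits, the most numerous class, 5 were called lower and 3 higher. These shares are 13.9% and 8.33%, against 13.1% and 12.2% of all genes. The class median was 0.026 on the log2 scale. KCNA5, a delayed rectifier known from the atrium (ENSG00000130037), was listed with 7, 2 and 4 counts in PEG and HS and 20, 22 and 25 counts in Control, that is 0.208, 0.0708 and 0.118 CPM against 0.741, 0.677 and 0.693 CPM. The libraries lay far apart for so few counts, and the log2 fold change of -2.35 ± 0.44 (SE, edgeR adjusted p = 0.001) ranged from -2.82 to -2.08 over the alternatives. KCNA1, next to it on chromosome 12 and also of the Shaker family, was at 0.563, 0.566 and 0.591 CPM against 1.26, 0.985 and 0.970 CPM. It was called lower without overlap (-0.89 ± 0.27, SE, edgeR adjusted p = 0.0261), but not with DESeq2 (0.0677), nor without the first Control library or any of the PEG and HS libraries (0.0532 to 0.0889). KCNA6, the third gene of that cluster, was at 4.55 to 5.66 CPM against 4.86 to 5.54 CPM, with overlap (-0.11, edgeR adjusted p = 0.522).

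Silent subunits of the voltage-gated class, which form no channel alone and modify other voltage-gated potassium channels, went in both directions. KCNG3 (ENSG00000171126) was at 6.38, 5.06 and 5.91 CPM in PEG and HS, against 10.1, 11.4 and 11.4 CPM in Control. Its fall was without overlap (-0.92 ± 0.092, SE, edgeR adjusted p = 2.29e-06). KCNS3 (ENSG00000170745) was at 27.0, 26.6 and 27.2 CPM against 21.2, 21.8 and 21.1 CPM, a rise with little spread in either medium (0.33 ± 0.048, SE, edgeR adjusted p = 9.18e-05). The other silent subunits tested (KCNF1 at -0.85, KCNG1 at 0.037, KCNG2 at 0.27, KCNS1 at 0.39, KCNV1 at 0.24 and KCNV2 at -0.35) did not pass.

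Further calls in the class were small. KCNH2, the hERG channel of cardiac repolarization, was called lower (-0.34 ± 0.085, SE, edgeR adjusted p = 0.00743). KCND2, an A-type channel of dendrites, was at 25.6, 24.7 and 24.5 CPM against 22.4, 21.6 and 23.0 CPM. KCND2 did not overlap (0.16 ± 0.050, SE, edgeR adjusted p = 0.0309), yet its call was lost in 5 settings, with DESeq2 (0.101) and without the first or second library of either medium (0.0563 to 0.117).

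Inward rectifiers pass potassium more easily into the cell than out of it and set the resting potential. Of 11 tested, KCNJ6 was called lower and KCNJ2 higher (18.2% called, against 25.3% of all genes). No inward rectifier reached a mean of 10 CPM in Control, and fewer genes are called at such levels. Of all genes, 21.6% were called between 1 and 10 CPM and 5.85% between 0.1 and 1 CPM. KCNJ6, a G-protein-gated subunit (ENSG00000157542), was at 0.563, 0.531 and 0.502 CPM in PEG and HS, against 1.48, 1.69 and 1.55 CPM in Control. The 19, 15 and 17 counts in PEG and HS lay clear of the 40, 55 and 56 in Control (-1.56 ± 0.24, SE, edgeR adjusted p = 0.000191). KCNJ2, a strong inward rectifier (ENSG00000123700), was at 1.04, 1.49 and 1.27 CPM against 0.704, 0.492 and 0.748 CPM. It was higher in each PEG and HS library (0.95 ± 0.27, SE, edgeR adjusted p = 0.0186), but leaving out the second Control library (0.0794) or the second PEG and HS library (0.0715) ended the call. KCNJ11, the pore of the ATP-sensitive channel and the inward rectifier with the highest level per kilobase, was at 7.98, 8.10 and 8.10 CPM against 6.67, 7.26 and 7.43 CPM. These did not overlap but did not pass (0.17 ± 0.079, SE, edgeR adjusted p = 0.125).

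KCNJ12 lay just outside the threshold, at 1.78, 2.05 and 2.01 CPM against 2.59, 2.65 and 2.63 CPM (-0.43 ± 0.15, SE, edgeR adjusted p = 0.0503). It shares 25.3% of its transcript sequence, counted in words of 31 bases, with transcripts of other genes, and the near-identical KCNJ18 was listed with 0 counts in all 6 libraries. The count of KCNJ12 is therefore uncertain. KCNE4, a beta subunit of voltage-gated potassium channels, lay just inside, with 30 counts over the 6 libraries and 0, 0.106 and 0.0591 CPM against 0.111, 0.400 and 0.249 CPM (-2.22 ± 0.78, SE, edgeR adjusted p = 0.0495). The call of KCNE4 was lost with library size alone (0.051) and without PEG and HS replicate 1 or 3 or Control replicate 2 or 3 (0.0874 to 0.197).

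Tandem-pore-domain potassium channels, which carry the background leak, gave 3 calls among 13 genes tested, all lower. That is a share of 23.1%, against 25.3% of all genes called in either direction and 13.1% called lower. KCNK12 was at 11.5, 13.1 and 11.6 CPM in PEG and HS, against 16.8, 16.8 and 16.4 CPM in Control, without overlap (-0.47 ± 0.065, SE, edgeR adjusted p = 6.71e-05). KCNK1 was at 10.1, 9.84 and 11.2 CPM against 13.6, 12.8 and 16.2 CPM (-0.46 ± 0.088, SE, edgeR adjusted p = 0.00126). KCNK5, a pH-sensitive leak channel and the most abundant of the class per kilobase, was at 43.1, 44.4 and 43.8 CPM against 47.8, 46.1 and 48.5 CPM. The KCNK5 fall was small (-0.12 ± 0.038, SE, edgeR adjusted p = 0.036). It was not called in 7 alternative settings, with DESeq2 (0.0938), with library size alone (0.0524) and without any single library except the second Control library (0.0517 to 0.122). KCNK6 was at 15.8, 17.3 and 18.4 CPM against 19.3, 19.6 and 18.9 CPM and did not pass (-0.16 ± 0.063, SE, edgeR adjusted p = 0.0723). The class summed to 84.8 to 89.4 CPM in PEG and HS, against 99.5 to 104 CPM in Control. Of the 13 fitted changes, 11 were negative, against 8098 of 16505 over all genes. Some of the 11 were near 0 on few counts, such as KCNK7 at -0.003 (24 counts in total) and KCNK3 at -0.023 (30 counts).

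Among 17 auxiliary genes of potassium channels, KCNAB1, KCNAB2 and KCNE4 were called lower and KCNE3 and KCNMB4 higher. That is a share of 29.4%, against 25.3% of all genes. KCNAB1 encodes a cytoplasmic beta subunit that speeds the inactivation of Shaker channels such as KCNA1 and KCNA5. It was at 1.13, 1.06 and 1.51 CPM against 2.15, 2.25 and 2.47 CPM, without overlap (-0.89 ± 0.19, SE, edgeR adjusted p = 0.00313). KCNAB2, of the same family, was at 6.23, 6.33 and 6.00 CPM against 7.15, 8.59 and 7.29 CPM, and was called lower (-0.31 ± 0.092, SE, edgeR adjusted p = 0.0203). That call was lost with DESeq2 (0.0684) and without PEG and HS replicate 1 or 3 or Control replicate 2 (0.0575 to 0.114). KCNE3, a small single-span subunit that holds KCNQ1 open, was at 3.83, 3.75 and 4.49 CPM against 3.48, 2.71 and 2.27 CPM. The KCNE3 libraries did not overlap, and the gene was called higher (0.53 ± 0.16, SE, edgeR adjusted p = 0.0212), but not without PEG and HS replicate 3 or Control replicate 2 or 3 (0.0621 to 0.0963). For KCNE3, 16.9% of its exon bases lie opposite a lncRNA gene. KCNQ1 itself was at 2.80 to 3.63 CPM against 2.63 to 3.71 CPM (-0.044, edgeR adjusted p = 0.88).

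Of 9 sodium channel alpha subunits tested, 1 was called (11.1%, against 25.3% of all genes), and the count was 0 to 2 with 1 library left out. SCN8A, the pore with the highest level per kilobase in the class, was at 50.2, 52.2 and 49.2 CPM in PEG and HS, against 52.1, 50.7 and 48.4 CPM in Control. The media overlapped fully (0.0057 ± 0.040, SE, edgeR adjusted p = 0.94). SCN1A was at 2.05, 1.56 and 1.45 CPM against 0.667, 1.02 and 1.03 CPM. It was called higher (0.88 ± 0.24, SE, edgeR adjusted p = 0.0133), but not without the first PEG and HS library (0.0852) or the first Control library (0.0549). The other genes of the chromosome 2 group ranged from SCN7A at -1.31 (edgeR adjusted p = 0.0548, 56 counts in total) to SCN3A at 0.12, and none passed. The class summed to 99.4 to 104 CPM in PEG and HS, against 97.9 to 104 CPM in Control.

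The sodium channel beta subunits, single-span proteins that also act in adhesion, all had negative fitted changes. Of the 4, 1 passed (25%, against 25.3% of all genes). SCN4B was at 0.445, 0.531 and 0.680 CPM in PEG and HS, against 0.927, 1.08 and 1.22 CPM in Control, without overlap (-0.96 ± 0.28, SE, edgeR adjusted p = 0.0216). That call did not hold without PEG and HS replicate 1 or 2 or Control replicate 2 or 3 (0.0533 to 0.085).

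**Figure D3:**
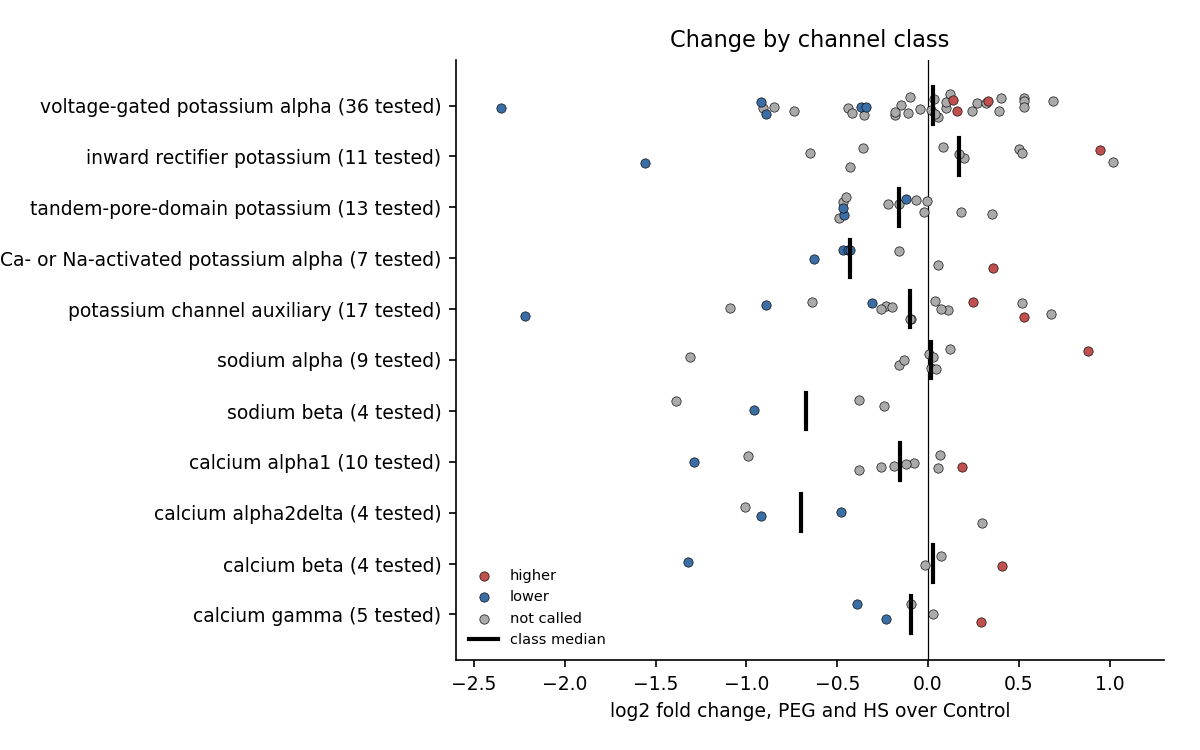
Each point is a tested channel gene, placed by its log2 fold change of PEG and HS over Control and coloured by call, with 1 row for each class; the vertical position within a row has no meaning and the black bar is the class median. The medians run from -0.70 (alpha2delta, 4 genes) and -0.67 (sodium beta, 4 genes) to 0.17 (inward rectifier, 11 genes).

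**Figure D4:**
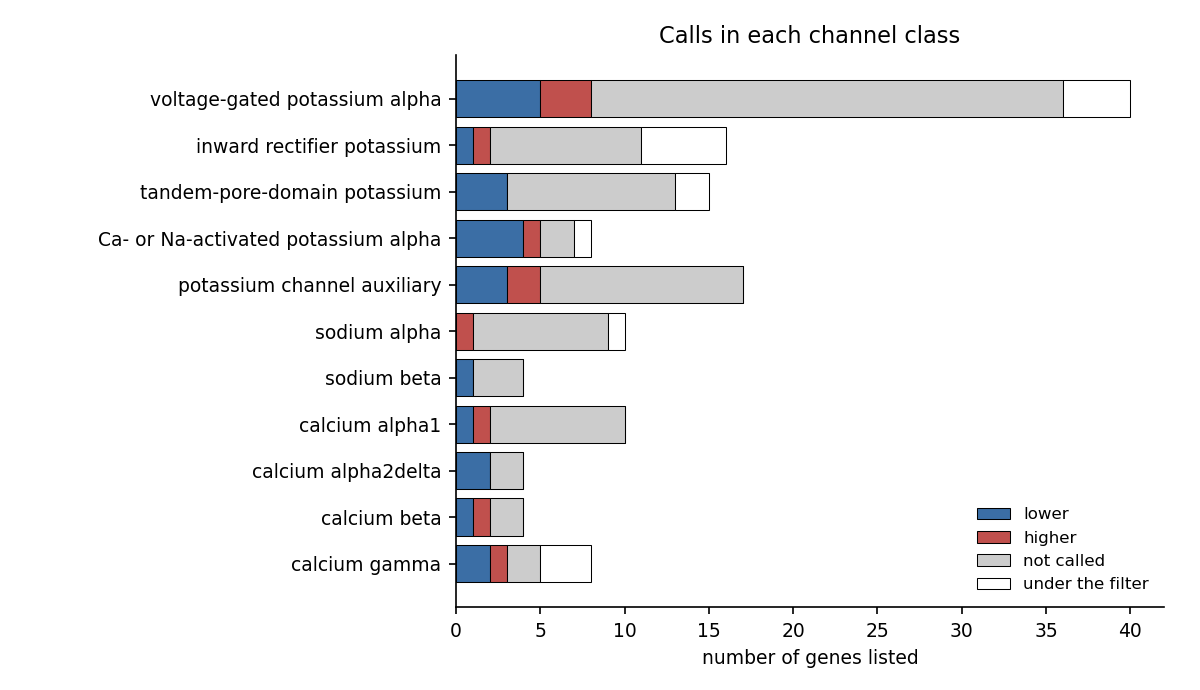
Number of genes listed in each class, split into called lower (blue), called higher (red), not called (grey) and under the filter of 10 counts (white). Among the 7 tested calcium- or sodium-activated genes, 4 were called lower and 1 higher (57.1% and 14.3%). Among the 36 tested voltage-gated potassium alpha subunits, 5 were called lower and 3 higher (13.9% and 8.33%). Of all genes, 13.1% were called lower and 12.2% higher.

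Levels were compared between genes per kilobase of annotated exon. CACNG7 and CACNA1H led, with means over the 6 libraries of 19.1 and 16.6 CPM per kilobase. In Control they were separated (19.7 to 21.9 against 15.9 to 16.8 CPM per kilobase), and in PEG and HS their ranges overlapped (16.8 to 18.2 against 16.5 to 17.3 CPM per kilobase). KCNK5 came next at 11.4 to 12.8 CPM per kilobase over all libraries, below both. CACNA2D2 was the next in Control (10.4 to 11 CPM per kilobase), above KCNS3 (6.74 to 6.98 CPM per kilobase), but in PEG and HS the order was turned, with KCNS3 at 8.52 to 8.68 and CACNA2D2 at 5.53 to 5.97 CPM per kilobase. KCNMB4 also passed CACNA2D2 in PEG and HS, at 5.99 to 6.57 CPM per kilobase, although only by a narrow gap.

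CACNA2D1, KCNN2 and KCND2 completed the 9 highest by this length, the union of a gene's annotated exons. The order depends on it. With the longest or the canonical transcript as the length, KCND2 came 12th or 14th, KCNMB4 9th or 10th, and KCNN2 (6th or 4th) above CACNA2D1 (7th in both). KCNS3 (4th or 5th) then came above CACNA2D2 (5th or 6th) in the mean over the 6 libraries. Whether these genes change places between the media with those lengths was not tested. In Control, CACNA2D1 (6.00 to 6.17 CPM per kilobase) lay above KCNN2 (5.43 to 5.66), KCNMB4 (5.06 to 5.37) and KCND2 (3.57 to 3.80), with no overlap between neighbours. In PEG and HS, CACNA2D1 (4.27 to 4.53 CPM per kilobase) lay above KCND2 (4.05 to 4.22) and KCNN2 (3.83 to 4.25), which overlapped. These 9 genes span 7 of the 11 classes, with no inward rectifier, sodium channel or calcium channel beta subunit among them.

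**Figure D5:**
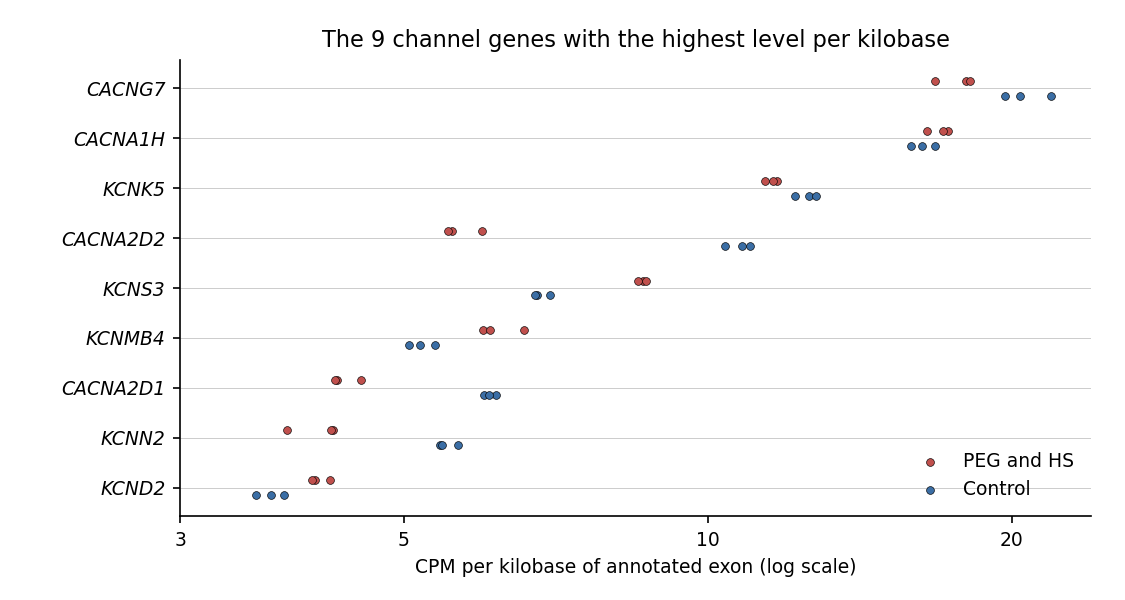
Level of the 9 channel genes with the highest mean, in CPM per kilobase of annotated exon on a log scale, with 1 point for each PEG and HS (red) and Control (blue) library. CACNG7, CACNA1H and KCNK5 lie above 11 CPM per kilobase in each library. By this length, CACNA2D2 and KCNS3 change places between the media.

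By position, 54 of the 136 members lie within 500000 bases of another member, in 23 groups. In 1 group, CACNG5, CACNG4 and CACNG1 on chromosome 17, calls were made in both directions (CACNG5 at 0.29 and CACNG4 at -0.39). In the group of KCNA6, KCNA1 and KCNA5 on chromosome 12, between 4809334 and 5046788, the last pair was called lower. Elsewhere a group held at most 1 called member, such as CACNG7 beside CACNG8 and CACNG6 on chromosome 19, KCNJ2 beside KCNJ16, and KCNJ6 beside KCNJ15.

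Genes that work with these channels were counted from 4 lists. Of 32 tested channel partners and related pore genes, 4 were higher and 4 lower, a share of 25% that is near the 25.3% of all genes. FGF12 (9.33 to 9.97 CPM in Control, 13.4 to 14.9 CPM in PEG and HS) and FGF13, which are intracellular proteins that bind sodium channels, were called higher at 0.55 and 0.24 (edgeR adjusted p = 1.99e-05 and 0.00305), and so were the lysosomal channel gene TPCN1 at 0.40 and NALF2 at 0.13. The ankyrin genes ANK2 and ANK3, which anchor sodium channels and pumps, were called lower at -0.26 and -0.14, as was UNC80 of the sodium leak channel at -0.78. LRRC38, a BK auxiliary subunit, was called lower on few counts (-2.05 ± 0.65, SE, edgeR adjusted p = 0.0313). It had 5, 1 and 3 counts in PEG and HS against 15, 4 and 19 in Control, and its libraries overlapped.

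Of 12 tested sodium-potassium pump genes, 4 were called (33.3%), all lower, where 13.1% of all genes were called lower and 12.2% higher. FXYD6, a pump regulator, had the best-supported fall, from 73.1 to 77.9 CPM in Control to 46.5 to 51.3 CPM in PEG and HS (-0.65 ± 0.042, SE, edgeR adjusted p = 1.56e-08). FXYD1 at -0.66 and ATP1B3 at -0.11 were also called lower. Of 23 genes of calcium stores, entry and pumps, 5 were higher (ITPR1, ITPR2, RYR1, STIM2 and ATP2A3) and 3 lower (RYR2, ATP2B4 and SLC8A2), a share called of 34.8%. ITPR2, a calcium release channel of the endoplasmic reticulum, was at 104, 103 and 106 CPM in PEG and HS, against 72.1, 70.6 and 70.8 CPM in Control (0.55 ± 0.031, SE, edgeR adjusted p = 2.82e-09), and ATP2B4, a calcium pump of the plasma membrane, was at 41.6, 42.7 and 43.4 CPM against 72.1, 73.7 and 73.5 CPM (-0.78 ± 0.035, SE, edgeR adjusted p = 2.39e-10). Of 23 tested chloride channel genes, 2 were higher (ANO5 and ANO8) and 3 lower (ANO1, ANO9 and CFTR), a share called of 21.7%. CFTR was at 1.36, 0.814 and 1.12 CPM against 4.11, 4.37 and 4.46 CPM (-1.96 ± 0.17, SE, edgeR adjusted p = 5.74e-07).

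Markers of other cell types were read beside these results. Of 6 neural progenitor markers, 5 were called lower in PEG and HS (SOX1 at -1.70, HES5 at -1.58, PAX6 at -1.17, OTX1 at -1.11 and NES at -0.24), and the list summed to 535 to 571 CPM against 639 to 665 CPM, nearly all of it NES. Of 7 tested neuron markers, STMN2 was lower (-0.93) and the sum overlapped at 68.3 to 71.7 CPM against 69.6 to 70.9 CPM, with NEUROD1 at 0 in 3 libraries. Of 5 tested cardiac markers, TNNT2 (-1.63) and TNNI3 (-0.39) were lower, the sum was 8.53 to 9.22 against 10.8 to 11.7 CPM, and MYH7 was at 0 in 4 libraries. None of 3 smooth or skeletal muscle, 2 endoderm and 4 mesoderm markers tested was called, their sums being 19.7 to 21.8 against 22.1 to 26.4, 2.79 to 2.90 against 3.38 to 4.23 and 2.43 to 2.72 against 2 to 2.66 CPM, with MYOD1 at 0 in all libraries and SOX17 at 0 in 4. Of 4 neural crest markers, FOXD3 was higher (0.32) and SOX10 lower (-0.48), with sums of 105 to 115 against 97.1 to 103 CPM. Of the 8 pluripotency markers, POU5F1, NANOG, DPPA4 and ZSCAN10 were higher and SOX2 and LIN28A lower, with sums of 7906 to 8053 against 7725 to 7817 CPM. The part of neural progenitor and cardiac transcripts in the lower channel calls was not tested.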

How the data were processed

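Bulk mRNA libraries of NCRM-1 aggregates were analysed, 3 from PEG and HS and 3 from Control. The authors prepared stranded libraries, trimmed reads with Trim Galore 0.6.7 and mapped them to GRCh38 with STAR 2.6.1 inside the nf-core RNA-seq pipeline, and deposited raw counts per gene, 1 file per library. The counting step of that pipeline, its strand setting and its handling of reads with several matches are not given in the sources used here. Of 19977 genes, 19916 matched GENCODE 44, which gave symbols, positions and exon lengths.

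Genes with at least 10 counts in total were tested with edgeR 4.0.16 in R 4.3.3 (TMM, glmQLFit, glmQLFTest, Benjamini-Hochberg over all 16505 genes, called at an adjusted p under 0.05), and the scripts were tested on simulated data. The SE of a log2 fold change is its size over the root of its F statistic. Fold changes are PEG and HS over Control. The common biological coefficient of variation was 3.12%.

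The members, classes, gene lists and alternatives were chosen with earlier results of these data known. Genes given with each library's value were taken by rule: the member with the highest level per kilobase in each class, the 12 called members with the largest fall and up to 12 with the largest rise at 0.5 CPM or more in the higher medium, and the 3 highest members not called. Some genes that the rule takes are not reported here. Other genes were named after their values were seen. Alternatives were DESeq2 1.42.0, limma-voom (limma 3.58.1), upper quartile normalization, library size alone, other low-count filters, glmTreat, a stricter threshold, the replicate number as a block, summed gene families and each library left out. RefSeq promoter windows (GRCh38.p14) were searched by letter match.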

Additional observations from a re-analysis of the deposited data

How the results depend on the processing

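The count of called members (34) moved by over 1.5 times under 2 alternatives, to 11 with glmTreat at 1.2-fold and to 22 at an adjusted p under 0.01. Lower calls (23) came to 11 with glmTreat. Higher calls (11) were the less stable, with 7 under DESeq2, 0 under glmTreat of edgeR (7 at an unadjusted p under 0.05), 4 at an adjusted p under 0.01, and 6 to 11 with 1 library left out (6 without PEG and HS replicate 1 or Control replicate 2). The median log2 fold change of the members was -0.11 with upper quartile normalization, -0.12 with limma-voom, and -0.13 (without PEG and HS replicate 1) to -0.065 (without Control replicate 3) with 1 library left out. The causes of these shifts were not tested. Of the named genes, SCN8A and CACNB1, neither of them called, changed sign: SCN8A was -0.005 with upper quartile normalization and -0.0007 with filterByExpr, and with 1 library left out SCN8A ranged from -0.024 to 0.026 and CACNB1 from -0.059 to 0.037. With the replicate number as a block, 35 members were called (12 higher, 23 lower). Deviations of same-numbered libraries correlated at -0.0147, 0.0277 and 0.0596 over 13557 genes, and those of differently numbered libraries at -0.0937 to 0.0627. With 3 libraries per medium, these values cannot settle whether libraries of the same number were handled together. Families were also summed, joining genes where at least 50% of the 31-base words of 1 gene were shared with the other. With these sums, 42 members were called (13 higher, 29 lower). Each member takes the result of its family there, so KCNJ12 and KCNJ18 carry the same sum. Depth limits the members between 0.1 and 1 CPM, where 5 of 44 tested were called. No fold is given for the 5 members without counts.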
